A study of Mus musculus with 47 samples.

Results

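The Sox, T-box and Gata factor genes were examined in mouse liver for 3 histone marks, H3K27me3, H3K27ac and H3K4me1, in mice with and without the methyltransferases Ezh1 and Ezh2. The members were taken by name from the 3 gene families: 38 genes, of which 18 code for Sox factors, 15 for T-box factors and 5 for Gata factors, in a genome with 21281 autosomal protein-coding genes. Of these 38, 37 were matched to a gene record of the mm9 annotation, and Sox1 was not analysed here. The authors performed ChIP-seq on livers from 7 week old mice of 4 groups: male and female controls, and male and female mice with the double knockout E1/E2-KO, called DKO here as in the labels. Control mice carried floxed Ezh2 (Ezh2 f/f), with no Cre named in their labels. DKO mice carried floxed Ezh2 as well (labelled EZH2f/f, AC+), with the Alb-Cre transgene, a Cre recombinase driven by the albumin promoter, and were Ezh1-/- in every cell. Ezh2 was therefore deleted in hepatocytes, whereas Ezh2 is taken to be intact in the non-parenchymal cells of the same livers, which these lists cannot check; whether it is intact in bile duct cells was not tested. Each group and mark had 4 livers, except DKO female H3K4me1 with 3, and the reads of a group were pooled before peaks were called. The data are thus 1 list of intervals for each mark and group, 12 in all, with no replicate, no score and no read count. Differences between lists were not tested for this reason, and the depth behind each list is unknown.

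H3K27me3 is the repressive mark placed on lysine 27 of histone H3 by the polycomb repressive complex PRC2, in which Ezh1 or Ezh2 is the catalytic subunit. Genes of developmental transcription factors, Sox, T-box and Gata genes among them, are well known PRC2 targets in cells that do not use them. H3K27ac marks active promoters and enhancers and excludes methylation of the same lysine on the same histone tail, and H3K4me1 marks enhancers in active and poised states. Sox factors bind DNA through an HMG box and set the fate of neural, endothelial, bile duct and germ cells. T-box factors, named for T (Brachyury), pattern mesoderm, heart and limbs and control cytotoxic lymphocytes. Gata factors bind through zinc fingers, with Gata1 to Gata3 acting mainly in blood and Gata4 to Gata6 mainly in endoderm and heart.

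Members were set in 3 classes from textbook knowledge of where each gene is expressed, not from the values in these lists. Earlier results of these data were known when the classes were set, so that they are not fully independent of the data. The liver-expressed class holds 12 genes: Gata4, Gata6 and Tbx3 of hepatocytes, Sox4 and Sox9 of bile duct cells, Sox7, Sox17, Sox18 and Gata2 of endothelial cells, and Tbx21, Eomes and Gata3 of lymphocytes. The silent class holds 19 of the genes with a record, such as Sox2 and Sox10 of neural and neural crest cells, Tbx5 and Tbx20 of the heart and Tbr1 of the cortex. For 6 genes (Sox5, Sox6, Sox12, Sox13, Sox15 and Tbx2) the class was left unsure.

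The question asked first was how far H3K27me3 covered these genes in control liver. Most members lay inside broad H3K27me3 regions. A gene was counted as covered when at least 50% of its span, from the first to the last annotated base, lay inside regions. In control male liver 28 of 37 members were covered, against 31.1% of all autosomal protein-coding genes, and in control female liver 29 of 37, against 27.9%. T-box genes were covered most often, 13 of 15 in control male liver, followed by Sox genes with 12 of 17 and Gata genes with 3 of 5. In all 4 lists together, 24 members were covered to 100%, which held for 12.8% of all genes. The region that contained the start of the gene (the 5′ end of its span) was also wide. Its median width over the members was 118 kb in control male and 88 kb in control female liver, against 53.6 kb and 42 kb over all genes whose start lay in a region. In DKO male and female liver the medians were 98.4 kb and 81 kb, against 55.2 kb and 46 kb.

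Coverage in control liver did not separate liver-expressed from silent members. Left out of this comparison were the 6 unsure genes, of which 2 were covered in each control list. Of the liver-expressed genes 10 of 12 were covered in each control list, and of the silent genes 16 of 19 in control male and 17 of 19 in control female liver. The median coverage was 100% in both classes in each of the 4 lists. When the classes were instead set by an H3K27ac peak at the start in either control list, the median in DKO female liver was 44.4% over the members with a peak and 100% over those without, and both medians stayed at 100% in the other 3 lists. The genes of non-hepatocyte cell types were covered throughout: Sox4 and Sox9, which specify bile duct cells, Sox7, Sox17 and Sox18, which specify endothelium, and Tbx21 and Eomes, which drive cytotoxic lymphocyte fates, were all at 100% in each list. Gata2, a blood and endothelial factor, was also at 100% in each list, and Gata3, the factor of T helper 2 cells, was at 93.6% in control male liver and at 100% in the other 3 lists. Whole liver was used, so that a mark on a gene in one cell type and its absence in another cannot be told apart.

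Gata4 and Gata6, the hepatocyte members, stood apart from these. Gata4 (chr14:63817759-63890529, minus strand), a factor of endoderm and liver development, was covered to 34.8% in male and 43.6% in female control liver. Gata6 (chr18:11052508-11085633, plus strand), its close relative, was covered to 0% and 9.34%. Tbx3 (chr5:120120678-120134733, plus strand), the third hepatocyte gene and a repressor of cell cycle inhibitors, was at 100% in all 4 lists although H3K27ac peaks lay at its start in each of them. Hence the hepatocyte genes ranged from no coverage to full coverage in the same control male liver. Of the unsure genes, Tbx2, a relative of Tbx3, was at 100% in all 4 lists, Sox15 at 0%, Sox5 at 0.346% or less, and Sox6 at 19.9%, 5.26%, 33.5% and 20.1% in control male, control female, DKO male and DKO female liver. Among the silent genes, Tbx6 (chr7:133924997-133929074), a factor of somite formation, was at 0% in all 4 lists, and Sox30, a factor of the male germ line, was covered to between 41.6% and 43.7%. The lowest silent coverage in control male liver was 0%, at Tbx6 and Tbx10, and the highest was 100%, shared by 15 of the 19 genes.

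**Figure D1:**
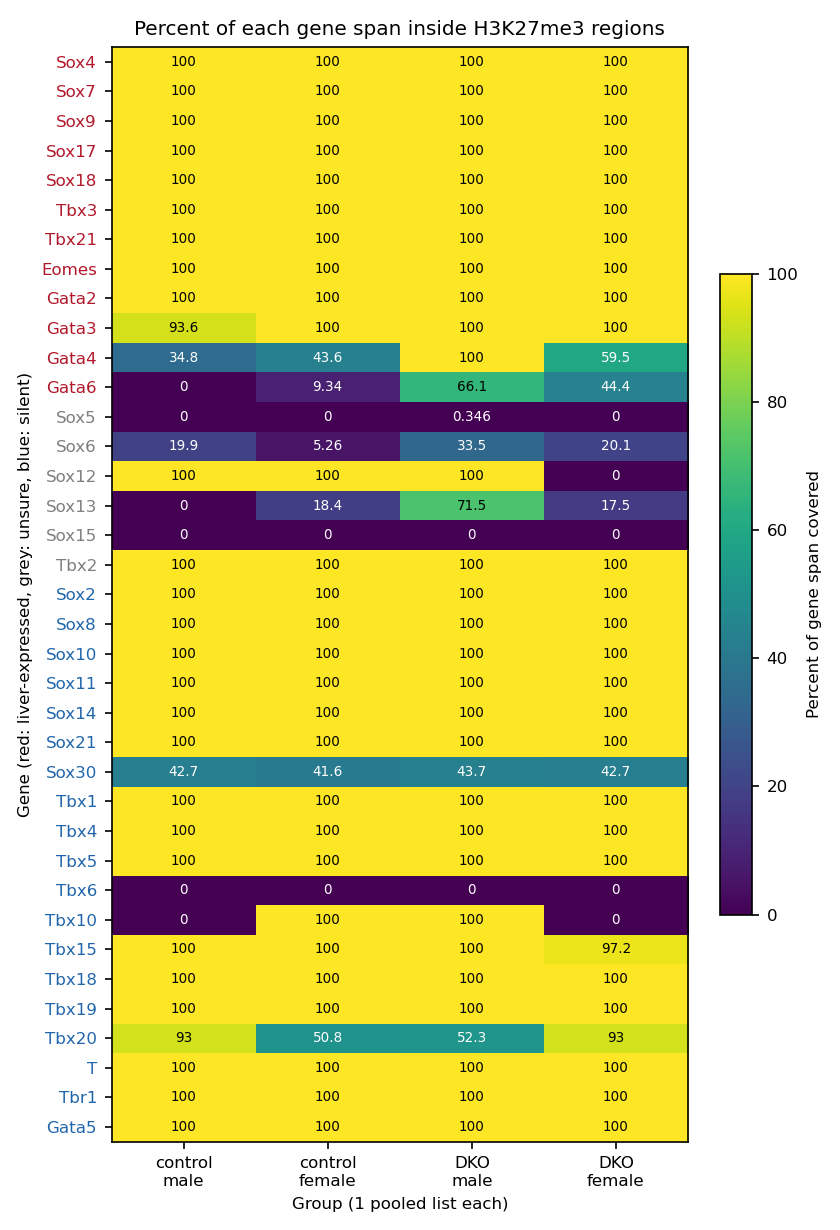
Percent of the gene span inside H3K27me3 regions for each of the 37 members (rows; name in red: liver-expressed, grey: unsure, blue: silent) in each of the 4 lists (columns), each value being 1 pooled list. Most rows are at 100% in all lists, and the rows that vary are Gata3, Gata4, Gata6, Sox5, Sox6, Sox12, Sox13, Sox30, Tbx10, Tbx15 and Tbx20.

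The bases before the starts of these genes were read from the NCBIM37 genome, which is mm9. PRC2 is known to settle at CpG-rich DNA, so that the content of CpG dinucleotides is shown beside the mark. The ratio of observed to expected CpG in the 300 bases upstream of the start had a median of 0.66 over the members and 0.49 over all genes. Over the 24 members covered to 100% in all lists the median was 0.68, whereas over all 2714 genes covered to that extent it was 0.36. A ratio above 0.6 was found in 17 of these 24 members (70.8%) and in 26.1% of all genes covered to that extent. Of the 13 other members 5 had such a ratio (38.5%), against 41.1% of all genes. The liver-expressed members (median 0.62) and the silent members (0.66) had similar ratios. Members are not independent of each other as draws from the genome, and these shares are descriptions.

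Windows of 300 bases are printed to show the range among the genes with the clearest states, in lower case with each CG in capitals. The liver-expressed genes with H3K27ac at the start in all 4 lists are Sox7, Sox9 and Tbx3, of which the lowest and the highest ratio are shown. The windows are Sox9 at chr11:112643238-112643537 on the plus strand (15 CG, ratio 0.63), which overlaps an exon of the transcript BC006965, and Tbx3 at chr5:120120378-120120677 on the plus strand (27 CG, ratio 0.77).
Sox9: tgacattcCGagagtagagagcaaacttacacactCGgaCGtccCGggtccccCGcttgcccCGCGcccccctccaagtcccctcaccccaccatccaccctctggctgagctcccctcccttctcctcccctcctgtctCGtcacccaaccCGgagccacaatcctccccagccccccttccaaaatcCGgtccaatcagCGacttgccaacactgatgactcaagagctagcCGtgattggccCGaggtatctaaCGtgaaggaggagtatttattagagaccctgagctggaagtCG
Tbx3: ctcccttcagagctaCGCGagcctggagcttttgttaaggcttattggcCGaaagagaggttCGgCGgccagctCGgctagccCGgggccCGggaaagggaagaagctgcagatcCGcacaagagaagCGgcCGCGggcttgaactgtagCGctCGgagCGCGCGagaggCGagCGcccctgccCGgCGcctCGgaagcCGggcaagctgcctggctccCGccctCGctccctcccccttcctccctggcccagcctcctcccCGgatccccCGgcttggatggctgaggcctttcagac
Of the silent genes covered to 100% in all lists the lowest and the highest ratio belong to Tbx5 and Sox2. The windows are Tbx5 at chr5:120284372-120284671 on the plus strand (0 CG) and Sox2 at chr3:34548627-34548926 on the plus strand (30 CG, ratio 0.85).
Tbx5: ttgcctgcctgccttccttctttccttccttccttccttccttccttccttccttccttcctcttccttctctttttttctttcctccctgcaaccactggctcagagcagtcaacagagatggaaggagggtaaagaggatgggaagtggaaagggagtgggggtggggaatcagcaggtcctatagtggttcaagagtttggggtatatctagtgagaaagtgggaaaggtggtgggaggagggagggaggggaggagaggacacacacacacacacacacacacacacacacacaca
Sox2: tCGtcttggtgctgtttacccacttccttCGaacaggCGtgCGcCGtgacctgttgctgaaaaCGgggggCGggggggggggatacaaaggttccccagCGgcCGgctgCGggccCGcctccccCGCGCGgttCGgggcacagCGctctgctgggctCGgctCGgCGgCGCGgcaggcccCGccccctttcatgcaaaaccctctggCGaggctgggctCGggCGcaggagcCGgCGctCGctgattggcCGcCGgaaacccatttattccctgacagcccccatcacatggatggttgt
The window of Tbx5, a limb and heart factor, holds CCTT and CA repeats and no CG, and it lies in the same H3K27me3 region as Tbx3 in 3 of the lists. Sox2, the pluripotency and neural factor, has the highest CpG ratio of the silent genes that are covered to 100% in all lists.

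**Figure D2:**
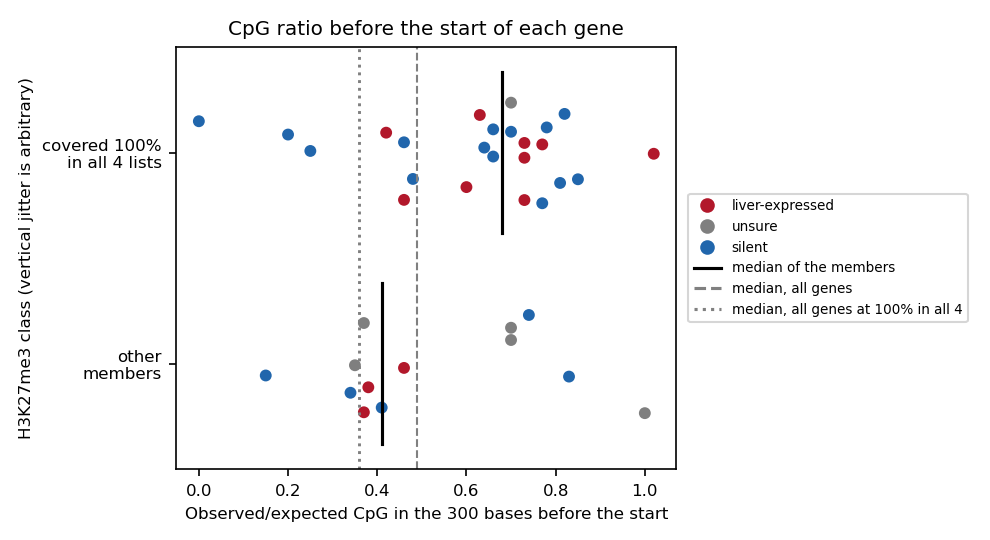
Observed to expected CpG ratio (horizontal axis) in the 300 bases before the start of each member, for the 24 members covered to 100% in all 4 lists and the 13 others; points are genes, coloured by class, and the solid line is the median of each row. The medians are 0.68 and 0.41, beside 0.49 over all genes (dashed line) and 0.36 over all genes covered to 100% in all lists (dotted line).

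The comparison of DKO with control liver asked whether H3K27me3 regions were lost from these genes without Ezh1 and Ezh2. At the level of whole genes regions were still called over nearly all members covered in control liver. The lists hold no signal strength, so that a region can stay called where the mark is weaker. Regions that stayed called therefore do not show that the mark was kept at its control level. In DKO male liver 32 of 37 members were covered, beside 33.9% of all genes, and in DKO female liver 28 of 37, beside 27.1%. Coverage lower in DKO by at least 25 percentage points was found at 1 member in males, against 6.3% of all genes, and at 2 in females, against 7.61%. Among the 28 members covered in control male liver 1 was lower by this margin, where the share among all genes so covered was 16.8%. Among the 29 covered in control female liver 2 were lower, where that share was 22%. Coverage higher by at least 25 points was found at 4 members in males, against 10.3% of all genes, and at 2 in females, against 6.59%, shares of the members close to the genome's. When the widest 50% of the regions of each list were used, lower coverage was found at 3 members in males (Sox9, Sox12 and Sox18), against 6.23% of all genes, and at 5 in females (Sox4, Sox9, Sox12, Sox17 and Sox18), against 7.67%. With these regions 27 members were covered in control male liver, against 24.2% of all genes, and 27 in DKO male liver, against 26.3%. In females 28 were covered in control liver, against 21.6%, and 24 in DKO liver, against 19.7%. Higher coverage was then found at 3 members in males (Sox13, Gata4 and Gata6), against 9.06%, and at 0 in females, against 5.4%.

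The members with lower coverage were Tbx20 in males, and Sox12 and Tbx10 in females. Sox12 (chr2:152219347-152223782, minus strand), a group C Sox gene expressed in many progenitor cells, was at 100% in both control lists and in DKO male liver and at 0% in DKO female liver. An H3K27ac peak lay at its start in all 4 groups. Tbx20 and Tbx10 moved in opposite directions in the sexes. Tbx20 (chr9:24527648-24578746), a factor of the heart, went from 93% in control male to 52.3% in DKO male liver, and from 50.8% in control female to 93% in DKO female liver. Tbx10 (chr19:3992752-3999511), a T-box gene of limited expression, was at 0% in control male and DKO female liver and at 100% in the other 2 lists.

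The members with higher coverage were Sox13, Tbx10, Gata4 and Gata6 in males and Tbx20 and Gata6 in females, so that both hepatocyte Gata genes were among them. Gata4 was covered to 34.8% in control male and 100% in DKO male liver, and to 43.6% in control female and 59.5% in DKO female liver. Gata6 was covered to 0% in control male and 66.1% in DKO male liver, and to 9.34% in control female and 44.4% in DKO female liver. Sox13 (chr1:135278880-135320954, minus strand), a group D Sox gene known from T cells, was covered to 0% and 71.5% in the male lists and to 18.4% and 17.5% in the female lists. Both Gata genes were thus higher in DKO in each sex, Gata4 in females by less than 25 points, whereas Sox13 was higher in males alone. The female difference at Gata6 did not reach the margin with the widest 50% of regions, with a margin of 50 points or over the 2 kb around the start, where 0 members were higher in females. Some markers of hepatocytes were also higher: of 6 such genes (Alb, Ttr, Apoa1, Hnf4a, Serpina1a and Tat) all 6 were at 0% in both control lists, and Apoa1, Hnf4a and Tat were covered to at least 50% in both DKO lists, with 50.3% to 100% of their span. Ttr and Serpina1a stayed at 0% and Alb at 2.73% or less. Coverage higher by 25 points was thus found at 3 of the 6 markers in each sex, beside 10.3% of all genes in males and 6.59% in females. The part that whatever moved these markers had in the values of Gata4, Gata6 and Sox13 was not tested.

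Endothelial genes were at full coverage or not depending on the gene. The members Sox7, Sox17, Sox18 and Gata2, short genes inside wider regions whose coverage can stay full while a region narrows, were at 100% in all 4 lists. Of 4 endothelial markers all 4 were covered in both control lists, from 61.8% to 100%, and 1 in the DKO lists: Pecam1, Cdh5 and Stab2 were at 26.3% or less in DKO liver of either sex, and Kdr was at 100% throughout. All 4 bile duct markers (Krt7, Krt19, Epcam and Spp1), like Sox4 and Sox9, were covered in all 4 lists. Of the 4 lymphocyte markers 3 were covered in each list. Among these, Ptprc was at 99.3% in control male and 56.4% in DKO male liver, and at 73.1% and 84.8% in the female lists. Of 4 Kupffer cell markers 3 were covered in each list but DKO female, with 2. There Csf1r was at 4.42%, against 87.2% in control female liver. Of 4 stellate cell markers 2 were covered in each list, and Dcn was at 27.4% in control female and 0% in DKO female liver. The 4 genes that mark other organs (Neurod1, Myod1, Pou5f1 and Pax6) were covered to between 91.5% and 100% in all 4 lists, as were most silent members.

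The width of the region at the start showed differences that the coverage of these short genes could not show. At both bile duct genes the regions, as called, were narrower in DKO liver of either sex. Sox4 (chr13:29040788-29045582, minus strand), which acts in progenitor cells of many tissues, lay in regions of 100 kb in control male and 68.4 kb in control female liver, and of 41.2 kb and 28.8 kb in DKO male and female liver. Sox9 (chr11:112643538-112649074, plus strand), the factor that marks bile duct cells and liver progenitors, lay in regions of 74 kb and 70.8 kb in control and 31.6 kb and 28.4 kb in DKO liver. For each gene both control widths as called were above both DKO widths. With regions within 5 kb merged this did not hold for Sox9, at 74 kb in control male and 283 kb in DKO male liver. Sox12 lay in a region of 177 kb in control male, 129 kb in control female and 26.8 kb in DKO male liver. Sox18 (chr2:181404541-181406345), a factor of endothelium and lymphatic vessels, had 79.2 kb and 30.8 kb in the male lists and 41.6 kb and 21.2 kb in the female lists.

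A region narrowed to 50% of its control width or less, or gone, was found at 4 of the 31 members with a region at the start in control male liver, against 21.9% of all genes with such a region. In females it was found at 5 of 34, against 27.7%. Sox4, Sox9 and Sox12 met this limit in both sexes, 3 of the 31 members with a region at the start in both control lists, against 11.1% of all such genes. These shares of the members, 12.9% and 14.7%, lay below those of all genes. The genes were Sox4, Sox9, Sox12 and Sox18 in males and Sox4, Sox9, Sox11, Sox12 and Tbx10 in females. Other regions had similar widths in all lists as called: that of T, the mesoderm gene that gave the family its name, was between 90 kb and 90.8 kb in all 4 lists, and that of Tbx18 between 54.8 kb and 56 kb. In the other direction the region of Sox10 was 37.2 kb and 34.4 kb in control and 79.6 kb and 84 kb in DKO liver, and that of Gata3 (chr2:9778705-9811661, minus strand) 58.4 kb and 85.6 kb in control and 109 kb and 96 kb in DKO liver. These widths depend on where the caller joined regions. With regions within 5 kb of each other merged, the limit was met at 2 members in males (Sox2 and Sox4), against 21.9% of all genes with a region, and at 6 in females (Sox4, Sox9, Sox12, Sox18, Tbx10 and Gata4), against 28.9%, and Sox4 alone met it in both sexes, 1 of 31 members, against 11.7%. In the male lists the merged region of Sox9 was then wider in DKO (283 kb) than in control liver (74 kb), those of Sox12 (293 kb and 310 kb) and Sox18 (79.2 kb and 80.8 kb) were not narrower, and that of Gata3 was narrower (136 kb and 109 kb). In the female lists the merged region of Gata4 was 280 kb in control and 60 kb in DKO liver, although its coverage as called was higher in DKO, and that of Tbx18 was 55.2 kb and 87.2 kb. The direction of the difference in width turned with merging at 10 of 31 members in males, against 12.9% of all genes with a region at the start in control liver, and at 8 of 34 in females, against 12.5%. Neighbouring T-box genes shared regions: Tbx2 and Tbx4 lay in 1 region of 229 kb to 334 kb in each list, so that their widths are 1 measurement, and Tbx3 and Tbx5 lay in 1 region of 300 kb to 314 kb in 3 lists but in separate regions of 145 kb and 169 kb in control female liver.

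**Figure D3:**
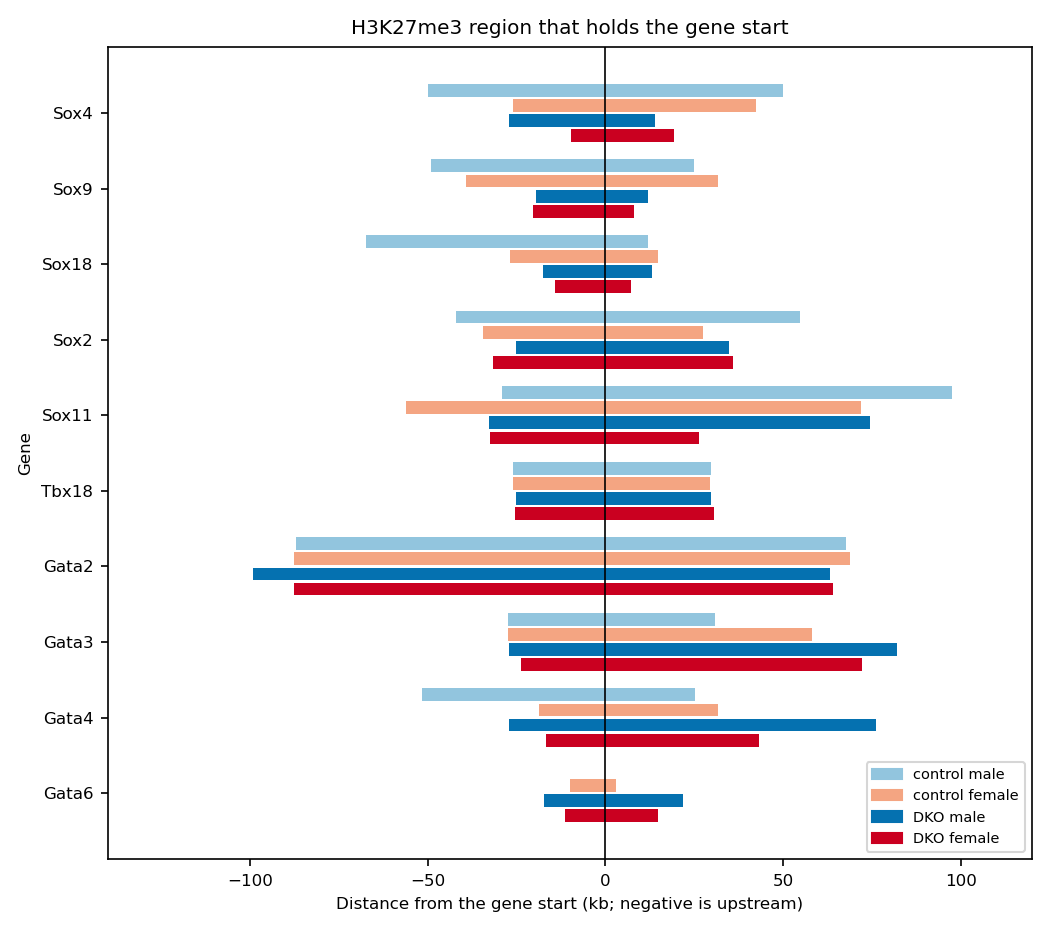
Extent of the H3K27me3 region that contains the gene start (vertical line at 0) for 10 members, in kb along the gene's own direction; each bar is 1 pooled list, light blue and light red for control male and female, dark blue and dark red for DKO male and female. With regions as called and not merged, the bars of Sox4 and Sox9 are shorter in DKO (28.4 kb to 41.2 kb) than in control (68.4 kb to 100 kb). Those of Tbx18 are equal within 1.2 kb, and Gata6 has no bar in control male liver.

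Next, H3K27ac peaks at the gene start were compared. A peak was counted when it overlapped the 1 kb on either side of the start. The starts of these genes carried H3K27ac less often than other genes in control liver and came closer to the genome's share in DKO liver with whole lists, though in females this was not seen with lists of equal length. In control male liver 7 of 37 members had such a peak, against 45.7% of all genes, and in control female liver 13, against 51.7%. In DKO male liver 16 members had one, against 52.7%, and in DKO female liver 17, against 52.3%. A peak at the start in all 4 lists was found at 7 members (Sox5, Sox7, Sox9, Sox12, Sox13, Sox30 and Tbx3), against 45% of all genes. A peak in DKO and none in control was found at 9 members in males, against 7.35% of all genes, and at 5 in females, against 2.5%. The reverse, a peak in control alone, was found at 0 members in males, against 0.315%, and at Sox17 in females, against 1.89%.

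The 5 genes with a peak at the start in both DKO lists and in neither control list were Sox4, Tbx18, Gata2, Gata3 and Gata4, a pattern shown by 1.31% of all genes. Of these, 4 are liver-expressed members of 4 different cell types, and Tbx18, a gene of the kidney, heart and mesothelium, is of the silent class. In males the peaks at Sox6, Sox15, Sox17 and Gata6 were added, and Sox15 is the only one of the 9 male genes without H3K27me3 in any list. Among the members that were covered in control and had no peak at the start there, 5 of 24 had one in DKO male liver, against 18.2% of all such genes, and 4 of 22 in DKO female liver, against 8.18%. The share in males was therefore close to that of other covered genes. The control male H3K27ac list is the shortest of its mark, with 29359 peaks against 49702 to 55930 in the other 3 lists. With the 29359 widest peaks of each list, 6 members had a peak at the start in DKO male and not in control male liver, against 3.66% of all genes. In DKO female and not in control female liver 5 members had one, against 2.14%. Sox4, Tbx18 and Gata4 were among these in both sexes. Members with a peak at the start were then 7 in control male liver, against 45.7% of all genes, and 13 in DKO male liver, against 47.8%. In females they were 11 in control liver, against 47.7%, and 11 in DKO liver, against 47.8%, so that the female counts were equal.

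The positions of these peaks were close between the sexes. This was partly fixed by the choice of genes with a peak within 1 kb of the start in both DKO lists. At Sox4 the centre of the peak lay 0.6 kb downstream of the start in DKO male and 0.58 kb in DKO female liver, and at Gata4 0.45 kb and 0.5 kb. At Gata2 (chr6:88143885-88157024, plus strand) it lay within 0.03 kb of the start in both, at Gata3 0.46 kb and 0.19 kb downstream, and at Tbx18 (chr9:87597635-87626095, minus strand) 1.02 kb and 1.14 kb downstream. The peak at Tbx18 spanned 1134 bp in males and 685 bp in females, and that at Gata2 227 bp and 246 bp. All 5 starts lay inside an H3K27me3 region in all 4 lists, and each of these peaks overlapped one. In the deposited lists both marks were thus called at the same place, in livers in which hepatocytes and other cells are mixed.

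The 300 bases upstream of these 5 starts are printed to show what DNA the peaks adjoin; this set was chosen after its values were seen. They lie at chr13:29045583-29045882 on the minus strand for Sox4 (22 CG, ratio 1.02), at chr9:87626096-87626395 on the minus strand for Tbx18 (17 CG, ratio 0.78), at chr6:88143585-88143884 on the plus strand for Gata2 (26 CG, ratio 0.73), at chr2:9811662-9811961 on the minus strand for Gata3 (7 CG, ratio 0.37) and at chr14:63890530-63890829 on the minus strand for Gata4 (7 CG, ratio 0.38). CG is again in capitals.
Sox4: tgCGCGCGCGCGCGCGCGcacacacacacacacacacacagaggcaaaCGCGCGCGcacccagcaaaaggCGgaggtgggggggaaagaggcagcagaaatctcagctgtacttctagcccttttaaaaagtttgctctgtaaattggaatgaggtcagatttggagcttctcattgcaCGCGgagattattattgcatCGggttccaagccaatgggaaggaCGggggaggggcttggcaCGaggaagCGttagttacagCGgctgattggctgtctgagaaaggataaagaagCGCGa
Tbx18: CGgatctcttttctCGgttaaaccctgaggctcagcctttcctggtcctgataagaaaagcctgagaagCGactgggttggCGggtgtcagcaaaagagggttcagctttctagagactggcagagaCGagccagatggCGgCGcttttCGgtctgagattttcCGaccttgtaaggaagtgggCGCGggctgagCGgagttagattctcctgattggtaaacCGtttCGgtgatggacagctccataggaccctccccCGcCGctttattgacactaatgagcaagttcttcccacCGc
Gata2: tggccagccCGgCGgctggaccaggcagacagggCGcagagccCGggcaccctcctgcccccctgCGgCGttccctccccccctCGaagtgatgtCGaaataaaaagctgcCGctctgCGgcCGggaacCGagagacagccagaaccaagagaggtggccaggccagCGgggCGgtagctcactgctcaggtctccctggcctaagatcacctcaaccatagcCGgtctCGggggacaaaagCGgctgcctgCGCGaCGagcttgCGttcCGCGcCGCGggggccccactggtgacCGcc
Gata3: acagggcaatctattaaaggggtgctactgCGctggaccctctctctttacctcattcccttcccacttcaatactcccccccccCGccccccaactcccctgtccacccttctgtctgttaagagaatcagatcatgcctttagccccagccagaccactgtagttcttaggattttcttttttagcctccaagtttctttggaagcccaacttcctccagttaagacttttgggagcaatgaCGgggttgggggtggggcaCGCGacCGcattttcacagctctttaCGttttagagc
Gata4: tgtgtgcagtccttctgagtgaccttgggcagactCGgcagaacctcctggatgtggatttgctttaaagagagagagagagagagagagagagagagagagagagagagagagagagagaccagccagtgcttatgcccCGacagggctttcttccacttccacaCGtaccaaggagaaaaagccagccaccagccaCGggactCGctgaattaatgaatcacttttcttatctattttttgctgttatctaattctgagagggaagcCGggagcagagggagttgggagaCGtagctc
Sox4 has the highest CpG ratio of all members, with CG and CA repeats at its far end, whereas Gata3 and Gata4 lie below the median of all genes. None of these windows overlaps an annotated exon. The windows of all members were searched on both strands for short forms of the sites that the 3 families are known to bind, none of which contains another. The letters GATAAG stood for the zinc finger family. The Sox family was searched as AACAAT. The T-box family was searched as TCACACCT. GATAAG was found before Gata4 and Tbx18 and no other member (7.34% of all genes), AACAAT before Sox5 and Tbx19 (11% of all genes), and TCACACCT before no member (1.19% of all genes). With 2, 2 and 0 of 37 members (5.41%, 5.41% and 0%), these shares are not above those of all genes, and such small counts do not show them to be lower. A match is a description of letters and not of binding.

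**Figure D4:**
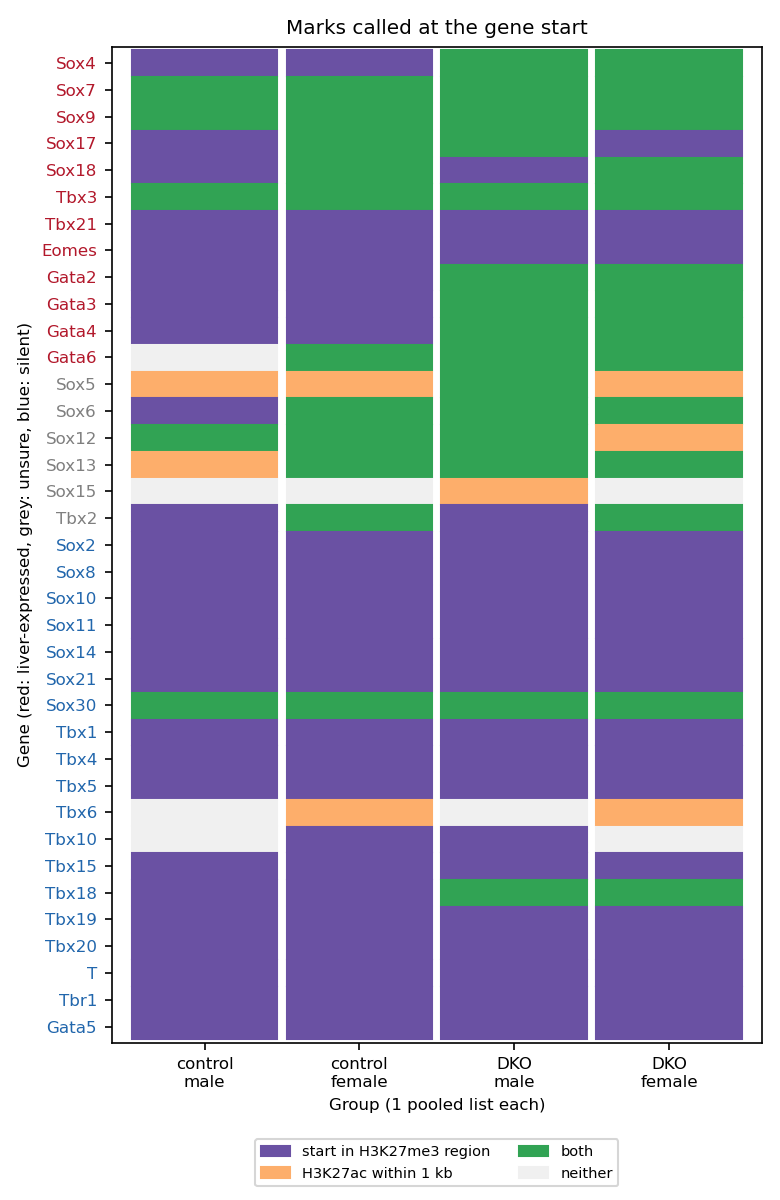
Marks called at the start of each member (rows; name in red: liver-expressed, grey: unsure, blue: silent) in each of the 4 pooled lists (columns): purple, the start lies in an H3K27me3 region; orange, an H3K27ac peak lies within 1 kb; green, both; light grey, neither. Sox4, Gata2, Gata3, Gata4 and Tbx18 are purple in both control columns and green in both DKO columns, and 15 starts are green in DKO male against 5 in control male liver.

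The overlap of both marks at the start was seen at 5 members in control male, against 7.95% of all genes, and at 11 in control female liver, against 10.9%. In DKO male liver it was seen at 15 members, against 17.9%, and in DKO female liver at 14, against 11.9%. Liver-expressed genes made up 3 of the 5, 6 of the 11, 9 of the 15 and 9 of the 14 in the same order. Of the 19 silent members 1 had both marks at the start in each control list and 2 in each DKO list, Sox30 and Tbx18. Tbx21 and Eomes were the liver-expressed members without an H3K27ac peak at the start in any list.

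H3K27ac was then counted within 10 kb of the gene span. In this wider window members with a peak numbered 17 in control male, against 61.6% of all genes, 21 in control female, against 68.2%, 26 in DKO male, against 70.2%, and 28 in DKO female liver, against 69.5%. The counts of liver-expressed and silent members differed in this window. Of the 12 liver-expressed genes 7, 10, 12 and 11 had a peak in control male, control female, DKO male and DKO female liver, and of the 19 silent genes 4, 5, 8 and 11. The silent genes with a peak in DKO but in no control list were Sox2, Tbx4, Tbx15, Tbx18, Tbx19, Tbr1 and Gata5. Tbx15, a skeletal and skin factor, and Gata5, of endoderm and heart, had 0, 0, 2 and 1 peaks in the order above, Tbx18 and Tbr1 had 0, 0, 1 and 1, and Sox2, Tbx4 and Tbx19 had 1 peak in DKO female liver alone. The other silent genes with peaks had some in control liver: Sox8 had 1, 1, 1 and 2, Sox30 had 1 in each list, Tbx6 had 2, 3, 2 and 4, Tbx10 had 4, 4, 5 and 5, and Tbx1, the gene of the pharyngeal arches, had 1 in control female liver alone. Silent genes with peaks thus had few, at most 5 in any list. No peak lay near Sox10, Sox11, Sox14, Sox21, Tbx5, Tbx20 and T in any list, genes of the nervous system, limb, heart and early mesoderm. These were 7 of 37 members, against 27% of all genes, so that genes without any peak were not more frequent among the members than among all genes. A peak within 10 kb can belong to a neighbouring gene.

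More H3K27ac peaks in DKO than in control liver were listed at 21 members in males, against 45.4% of all genes, and at 19 members in females, against 23.5%. Fewer were listed at 1 member in males, Sox15, against 4.77%, and at 4 in females, Tbx1, Tbx2, Eomes and Gata6, against 19.9%. The female lists are of similar length, and there the members with more peaks were 51.4% of all members. In both sexes 14 members had more, against 16.3% of all genes. With equal numbers of the widest peaks the members with more peaks were 13 in males, against 15.9% of all genes, and 9 in females, against 16.3%. Those with fewer were then 1 in males, against 19.4%, and 5 in females, against 16.1%. Of the members with more peaks, Sox4, Tbx15, Tbx18, Tbr1 and Gata4 were found in both sexes.

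The counts of single genes were small and differed in order between sexes. Gata4 had 4 peaks in the control male list, 8 in the control female list, 12 in the DKO male list and 9 in the DKO female list. Gata6 had 1, 5, 3 and 3 in the same order, so that its direction differed between the sexes. Tbx3 had 3, 4, 5 and 5, Sox9 had 2, 2, 3 and 4, and Sox4 had 1, 1, 3 and 3. Gata3 had no peak in either control list, 2 in DKO male and 3 in DKO female liver. Tbx21, the lymphocyte factor also called T-bet, had no peak in control and 1 in each DKO list. Gata2 had 0, 1, 2 and 1, Sox17 had 0, 1, 2 and 1, Sox18 had 1, 3, 1 and 3, Sox7 had 2, 2, 3 and 2 and Eomes had 0, 1, 1 and 0. In these 5 genes, the endothelial members and Eomes, the DKO female list had no more peaks than the control female list. The other lymphocyte genes, Gata3 and Tbx21, had more. Of the unsure genes, Sox13 had 2, 4, 9 and 7 peaks, Sox12 had 1, 2, 3 and 2, Sox15 had 4, 2, 3 and 2, and Tbx2 had 1, 4, 3 and 3.

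The long genes Sox5 and Sox6, which act in cartilage and red cells, held many of the peaks. Sox5, of 953553 bp, had 17, 42, 49 and 43 H3K27ac peaks in the order above, and Sox6, of 567401 bp, had 9, 21, 24 and 24. The sum over all members was 56, 113, 144 and 135 peaks. Without these 2 genes, a choice made after the data were seen, it was 30, 50, 71 and 68. The control lists were lower than the DKO lists of the same sex with and without them. Summed over all autosomal genes the counts were also lower in control, with 33640, 52490, 57097 and 53496.

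**Figure D5:**
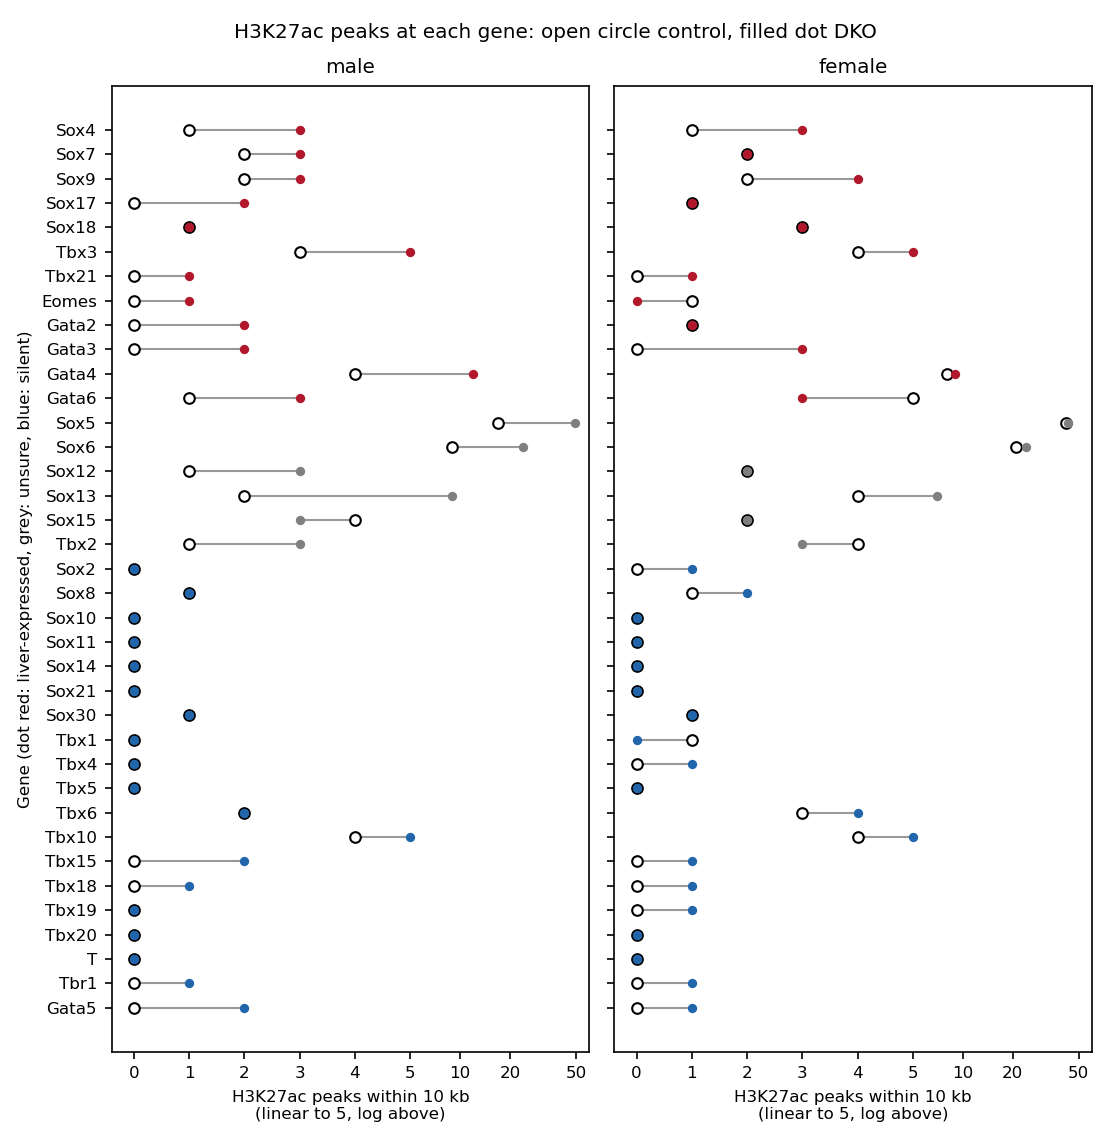
Number of H3K27ac peaks within 10 kb of each member (rows) in male liver (left) and female liver (right), open circles for control and filled dots for DKO (red: liver-expressed, grey: unsure, blue: silent), 1 pooled list each; the axis is linear to 5 and logarithmic above. Dots lie to the right of circles at 21 genes in males and 19 in females, and to the left at 1 and 4.

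Peaks listed in both sexes of one genotype and in neither list of the other were counted next. This measure was added after the data were seen. Of the 144 H3K27ac peaks near members in DKO male liver, 22 overlapped a peak of DKO female liver and none of either control list, which is 15.3%, against 8.14% of all H3K27ac peaks of that list. Of the 56 peaks near members in control male liver 0 showed the reverse pattern, against 2% of all peaks of that list. With a share so low, 0 of 56 does not set the members apart. The control male list is the shortest of this mark, and the measure was not repeated with lists of equal length. The 22 peaks lay at 14 members, 7 liver-expressed, 3 unsure and 4 silent. Of these peaks 14 overlapped an H3K27me3 region of DKO male liver, and the other 8 lay in Sox5, Sox6 and Sox13. Over all peaks of this kind in the genome, 43.8% overlapped such a region.

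In the silent genes each of these peaks lay away from the start except at Tbx18. At Tbx15 the peak lay 13.56 kb downstream of the start in males and 13.61 kb in females, in a gene covered to at least 97.2% by H3K27me3 in all lists. At Tbr1 it lay 9.01 kb and 9.05 kb downstream, within a gene at 100%. At Gata5 it lay 8.98 kb upstream in males and 8.9 kb in females. At the liver-expressed Tbx21 it lay 16.47 kb and 16.5 kb downstream, near the far end of the gene, and at Sox9 6.47 kb and 6.55 kb downstream. Sox4 and Gata4 each had 2 such peaks: at Sox4 the other lay 1.39 kb and 1.24 kb downstream, and at Gata4 2.03 kb and 2.23 kb. The peak upstream of Sox4, centred 4.71 kb to 5.04 kb before the start, was present in all 4 lists.

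H3K4me1 peaks lay near almost all members, liver-expressed and silent alike. A peak within 10 kb was listed at 35 members in control male, against 75.7% of all genes, at 32 in control female, against 73%, at 36 in DKO male, against 77%, and at 33 in DKO female liver, against 72.8%. Of the silent genes 17, 16, 18 and 17 of 19 had a peak, also in the order control male, control female, DKO male, DKO female. T was the only member without an H3K4me1 peak in any list. The liver-expressed genes had between 0 and 13 H3K4me1 peaks in a list, with medians of 3, 2, 3 and 2.5. Sox9 had 3, 0, 1 and 1, Sox4 had 3, 3, 3 and 2, Tbx3 had 3, 2, 3 and 3, and Gata6 had 1, 0, 3 and 0. Sox10, which directs neural crest cells, had none in control and 1 in each DKO list, at its start.

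More H3K4me1 peaks in DKO than in control were listed at 19 members in males, against 25.5% of all genes, and at 19 in females, against 21.1%. Fewer were listed at 7 members in males, against 29.5%, and at 10 in females, against 31.4%. Of the 19 members with more in males 13 are silent, among them Sox2 with 2 peaks in control and 4 in DKO, Sox21 with 1 and 4, and Tbx15 with 3 and 6. In females 8 of 19 are silent, and Sox2 had 1 and 3. Gata3 had 2 and 4 in males and 1 and 5 in females, and Gata4 had 13 and 10 in males and 4 and 5 in females. The DKO female list rests on 3 livers and holds 51417 peaks, the fewest of this mark. Peaks listed in both DKO lists alone were 18 of 205 near members, against 4.93% of all peaks of the male list, and those in both control lists alone were 12 of 194, against 5.79%. Of the first, 13 overlapped H3K27me3, and of the second, 2, a contrast also seen over all such peaks of the genome, with 53.9% and 20.4%. The share of the second was thus close to the genome's.

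Active marks near members overlapped H3K27me3 more often than all autosomal peaks of these marks in all 4 groups. Members lay inside H3K27me3 regions more often than other genes, so that a higher share is partly fixed by their coverage. Peaks near other genes of equal coverage were not counted. Of the H3K27ac peaks near members 25% in control male, 33.6% in control female, 50% in DKO male and 40% in DKO female liver overlapped a region of the same group, against 15.7%, 17.8%, 34.1% and 21.1% of all autosomal peaks. For H3K4me1 the shares near members were 39.7%, 42.2%, 58.5% and 50.7%, against 28%, 25.1%, 40.3% and 27.3%. Within each sex both shares were higher in DKO than in control liver, near members and in all peaks alike. The H3K27me3 lists themselves were similar in extent, with 707 Mb to 766 Mb in 15603 to 19796 regions.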

How the data were processed

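ChIP-seq libraries were made for 47 samples of whole mouse liver and 3 marks. The authors pooled reads over the livers in a group and aligned them to mm9 with Bowtie2 2.3.2. SICER 1.1, with windows of 400 bp, gave the H3K27me3 regions, and MACS2 2.1.1 gave the peaks of the other 2 marks. Each of the 12 deposited lists gives intervals by chromosome, start and end, with a name. They hold no score or count, so that depth and counting error are unknown, no replicate could be compared, and no test was made. SICER intervals stopped 1 base short of a window's end and were extended by it. Control and DKO lists were compared within each sex.

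Gene spans and starts were taken from GENCODE (release M1, NCBIM37, which is mm9), with the longest protein-coding record of each name. Coverage is the percent of the span inside regions, counted from 50%, with differences counted from 25 percentage points. Peaks were counted within 10 kb of the span where they overlapped it by 1 bp or more, and at the start within 1 kb. Counts of members by the main rules stand beside the share of the 21281 autosomal protein-coding genes that meet the same rule. Sequences were read from the NCBIM37 genome.

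The members, their classes and the marker lists were chosen with earlier results of these data known. Genes are named by a rule: every liver-expressed and unsure member, and every silent member whose coverage differed by 25 points in either sex or that had an H3K27ac peak within 10 kb in any list; of the other silent genes, those at the ends of the coverage range. T, Sox10, Sox11, Sox14, Sox21 and Tbx5 were named after their values were seen. Alternatives were another coverage limit, extended spans, windows at the start, other peak distances, merged peaks, other overlaps, the widest 50% of intervals and equal numbers of the widest intervals, since intervals could not be ranked by score. The width of the region at the start, the shares among covered genes, the sums without Sox5 and Sox6 and the peaks of one genotype were added after the data were seen. The functions were tested on simulated intervals at 197 genes, with 0 wrong values. Programs were Python 3.11.15, NumPy 2.4.6 and matplotlib 3.10.9.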

Additional observations from a re-analysis of the deposited data

Results flagged for a closer look

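At 2 members the difference in H3K27me3 coverage between DKO and control liver went one way in males and the other way in females. For Tbx10 it was 100 percentage points in males and -100 in females, since the gene was covered in DKO male and control female liver and free of regions in the other 2 lists. The region that held its start was 28 kb wide in DKO male and 7.2 kb in control female liver. For Tbx20 the difference was -40.6 points in males and 42.2 in females. With 1 pooled list in each group, the difference between the sexes was not tested.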

How the results depend on the processing

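No paired analysis was possible because each deposited list pools the livers of a group, and for the same reason no liver could be left out. Of 154 values recomputed, 121 stayed within 1.5 times the value given (medians within 10 points) and 33 did not. The cause of these was not tested unless the alternative itself asks for less or more. Counts given without a share of all genes, here or above, show how the members' own counts moved and do not set the members apart from the genome. A difference of 50 points left 0 members with lower coverage in males and 0 with higher coverage in females, as did 2 kb around the start. The widest 50% of regions gave 3 members with lower coverage in males, 5 in females, and 0 with higher coverage in females, and equal numbers of regions gave 1 with lower coverage in females. A region narrowed to 75% or less was found at 9 members in males and 10 in females, without a share of all genes. At the limit of 50% the members' shares lay below those of all genes (12.9% against 21.9% in males, 14.7% against 27.7% in females). Merging regions within 5 kb left 2 members in males at the limit of 50%. It turned the direction of the difference in width at 10 of 31 members in males and 8 of 34 in females. Inside the span only, 9 members had H3K27ac in control male and 20 had H3K4me1 in control female liver, 0 and 1 had fewer H3K27ac peaks in DKO males and females, and 4 had fewer H3K4me1 peaks in females. Within 50 kb, 32 members had more H3K27ac peaks in males, and 0 and 10 had fewer in males and females. No share of all genes stands beside these 50 kb counts, and within 10 kb 45.4% of all genes already had more in males. Equal numbers of peaks gave 13 members with more H3K27ac in males, 9 in females, and 11 with a peak at the start in DKO female liver, beside 11 in control female liver. Merging peaks within 1 kb gave 6 members with fewer H3K4me1 peaks in females. Peaks without an overlap in the other list of the same sex were counted without a share of all genes, so these counts describe the members only. With an overlap of 1 bp, 11 members had H3K27ac peaks in control female and not in DKO female liver. For H3K4me1, 18 in males and 17 in females had peaks in control alone. With an overlap of 50%, 2 members in males and 13 in females had H3K27ac peaks in control alone, 21 and 22 had H3K4me1 peaks in control alone, and 32 and 31 in DKO alone. With classes set by H3K27ac at the start in control, the median coverage of the liver-expressed class in DKO female liver was 44.4%. Lists differ in length by up to 1.91 times (H3K27ac), 1.36 times (H3K4me1) and 1.27 times (H3K27me3), which limits every count of peaks, and a peak that was not called is not shown to be absent.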

Other observations

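Of the 4 genes of the same families on the sex chromosomes, which were not among the members, 2 differed by sex and not by genotype. Tbx22, a palate gene, and Gata1, the factor of red blood cells, both on the X chromosome, were covered to 0% in control male and DKO male liver and to 100% in control female and DKO female liver. Sox3, a neural gene on the same chromosome, was at 100% in all 4 lists. Mga, an autosomal gene with a T-box that is used in many cells, was at 0% in all 4 lists and had an H3K27ac peak at its start in each of them. Sry, on the Y chromosome, was at 0% in all 4 lists and had no peak near it.

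Of 5 cofactors of Gata proteins, Tal1, a partner in blood and endothelium, was at 100% in all 4 lists and had an H3K27ac peak at its start in both DKO lists and in neither control list. Lmo2, which bridges Gata and Tal1, was covered to 100% in both control lists, to 74.7% in DKO male and to 61.5% in DKO female liver. Zfpm2, the Friend-of-Gata partner of Gata4, was covered to 72.2% and 47.7% in control male and female liver and to 27.4% and 26.3% in DKO liver. Its relative Zfpm1 stayed at or below 15.8%, and Ldb1 was covered to 45.3% in DKO male liver and to 0% in the other 3 lists.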
